A study of Homo sapiens with 12 samples.

Results

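The genes described here are 8 regulators of pre-mRNA splicing: SON, PTBP1, PTBP2, MBNL1, MBNL2, QKI, RBFOX2 and ESRP1. The data are the peaks of accessible chromatin that overlapped the span of one of these genes on hg19, extended by 50 kb on each side. The rule that picks these peaks uses position alone and no measured value, but the genes were chosen with earlier results of these data known. The 6 peak lists merged into 84664 regions, where peaks of any libraries overlapping by at least 1 base form 1 region, and 79 of these lay in the 8 windows. Chromatin accessibility had been measured in human cell lines by ATAC-seq, in which the Tn5 transposase cuts and tags open DNA. One line was ARPE-19, retinal pigment epithelial cells kept in DMEM with serum, and the other H7, embryonic stem cells kept in mTeSR Plus. Each line had 3 libraries of 500000 cells each, and no treatment or genetic change is given for either. The series' title concerns alternative splicing of TERT transcripts in development, and the regions around splicing regulators ask at which of these genes the lines differ in open chromatin.

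Splicing regulators bind pre-mRNA and promote or block the use of nearby splice sites, so the set of them in a cell shapes which exons its transcripts keep. SON is a large protein of nuclear speckles that helps the splicing machinery use weak splice sites. PTBP1 and its paralog PTBP2 bind pyrimidine-rich stretches and mostly repress exons, PTBP1 in most tissues and PTBP2 chiefly in neurons. The muscleblind proteins MBNL1 and MBNL2, RBFOX2 and the STAR-family protein QKI act by position, promoting or repressing an exon according to where they bind, and ESRP1 drives the exon choices typical of epithelial cells.

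Annotated promoter sequences show what kinds of start site 4 of these genes have. RefSeq's table for GRCh38.p14 matched 5 of the 8 genes, and all annotated starts are printed for those of the 5 with a called peak within 1 kb of the span's start. Each is 300 bases, 250 before and 50 after an annotated start, written 5′ to 3′ on the plus strand, at chr21:33542788-33543087 for SON, chr19:797202-797501 and chr19:797734-798033 for the first and second start of PTBP1, chr1:96722388-96722687 for PTBP2, and chr13:97141584-97141883 and chr13:97222083-97222382 for the first and second start of MBNL2. Capitals mark matches to the motifs searched. The sequences are of another build than the peaks and were not placed on hg19. The MBNL2 starts lie 80.5 kb apart, so they cannot both be beside the peak at the start of its span.
SON: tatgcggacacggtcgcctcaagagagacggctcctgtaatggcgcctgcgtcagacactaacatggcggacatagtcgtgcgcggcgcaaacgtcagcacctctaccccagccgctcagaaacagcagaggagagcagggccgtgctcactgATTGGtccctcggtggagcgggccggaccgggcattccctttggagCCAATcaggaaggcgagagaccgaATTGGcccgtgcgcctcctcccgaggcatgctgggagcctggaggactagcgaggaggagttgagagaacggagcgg
PTBP1, first start: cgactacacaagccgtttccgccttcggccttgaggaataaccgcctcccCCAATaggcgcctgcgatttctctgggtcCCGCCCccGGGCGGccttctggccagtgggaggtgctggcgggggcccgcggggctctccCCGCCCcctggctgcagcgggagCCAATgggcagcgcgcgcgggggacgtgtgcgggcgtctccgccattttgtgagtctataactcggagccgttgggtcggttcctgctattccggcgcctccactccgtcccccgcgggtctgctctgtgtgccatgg
PTBP1, second start: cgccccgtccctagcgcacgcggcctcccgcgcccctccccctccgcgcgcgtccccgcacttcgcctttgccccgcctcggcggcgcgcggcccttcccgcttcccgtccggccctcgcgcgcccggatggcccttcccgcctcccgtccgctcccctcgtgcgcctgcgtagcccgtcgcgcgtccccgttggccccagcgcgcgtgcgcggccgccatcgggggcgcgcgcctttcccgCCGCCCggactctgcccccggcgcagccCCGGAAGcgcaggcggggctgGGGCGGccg
PTBP2: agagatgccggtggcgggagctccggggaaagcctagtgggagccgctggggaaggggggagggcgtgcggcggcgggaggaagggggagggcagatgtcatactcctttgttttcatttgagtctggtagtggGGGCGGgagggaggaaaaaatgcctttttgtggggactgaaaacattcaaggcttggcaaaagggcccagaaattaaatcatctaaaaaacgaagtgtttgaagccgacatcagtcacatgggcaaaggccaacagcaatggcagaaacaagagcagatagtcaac
MBNL2, first start: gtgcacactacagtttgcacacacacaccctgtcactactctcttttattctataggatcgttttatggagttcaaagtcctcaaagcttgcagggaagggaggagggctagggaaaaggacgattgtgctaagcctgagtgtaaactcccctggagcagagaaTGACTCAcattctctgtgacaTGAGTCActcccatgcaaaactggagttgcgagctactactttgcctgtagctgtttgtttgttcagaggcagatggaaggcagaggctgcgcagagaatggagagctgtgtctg
MBNL2, second start: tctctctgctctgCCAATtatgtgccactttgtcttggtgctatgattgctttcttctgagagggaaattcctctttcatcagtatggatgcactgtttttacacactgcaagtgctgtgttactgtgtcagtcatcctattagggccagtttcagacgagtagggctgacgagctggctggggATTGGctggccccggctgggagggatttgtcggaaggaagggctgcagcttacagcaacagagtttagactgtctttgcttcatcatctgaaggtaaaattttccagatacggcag

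The SON and PTBP1 promoters were rich in G and C, and those of MBNL2 were not. GC content was 63.3% in the SON sequence, 69.3% and 82.7% in the 2 of PTBP1 and 54% in that of PTBP2, against 48.7% and 48.3% in the 2 of MBNL2 and a median of 58.7% over all 35116 promoters of the table. SON had 26 CG dinucleotides and the PTBP1 starts had 31 and 57, where PTBP2 had 11, the first MBNL2 start 4 and the second 5. The median over all promoters was 14. Motifs were searched on both strands. The GC box (letters GGGCGG) was matched 3 times at the first PTBP1 start, 2 times at the second, 1 time in PTBP2 and not in SON or MBNL2, and 45.0% of all promoters of the table held it. The CCAAT box (letters CCAAT) was matched 3 times in SON, 2 times at the first PTBP1 start and 2 times at the second MBNL2 start, and 34.6% of all promoters held it. The first MBNL2 start held 2 matches to the AP-1 motif (letters TGANTCA), which 7.71% of all promoters held. The second PTBP1 start held 1 match to the ETS motif (letters CCGGAAG), which 10.3% of all promoters held. The E box, octamer, NRF1 and palindromic CG motifs, held by 7.26%, 1.77%, 1.24% and 0.424% of all promoters, had no match in the sequences printed. For the E box the letters were CACGTG, and the rest are given by name alone. None of the matches marked overlapped another motif, and a match is a description of letters and not a site of binding.

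Across the 8 windows, ARPE-19 had more called peaks than the stem cells, by a number that depended on the length of the lists. ARPE-19 replicates 1, 2 and 3 had 49, 46 and 55 peaks in the windows, a mean of 50 ± 4.58 (SD, n = 3). The 3 H7 libraries had 10, 10 and 8, a mean of 9.33 ± 1.15 (SD, n = 3). The lines did not overlap, with a difference of 40.7 peaks (SE 2.73, exact two-sided permutation test, p = 0.1, n = 3 per line). With lists cut to one length, as described below, the means were 13.7 and 7.33 peaks and the difference 6.33. This test cannot go below 0.1 with so few libraries, so nothing compared between libraries below can pass 0.05. Whether the 3 libraries of a line came from separate cultures is not stated in the labels, so these p-values measure only the spread between libraries, which may be technical.

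The lists themselves differ in length, which bears on every count here. ARPE-19 lists held 40110 to 48460 peaks and H7 lists 8622 to 15351, a ratio of means of 3.53, while in the windows the ratio was 5.36. The windows held 0.110%, 0.115% and 0.113% of the peaks of the ARPE-19 libraries and 0.0651%, 0.0730% and 0.0928% of those of the H7 libraries (exact permutation p = 0.1, n = 3 per line). MBNL2 made up 42.7% of the ARPE-19 peaks, and without its window the shares were 0.0623% to 0.0681% and 0.0438% to 0.0696%, which overlapped (exact permutation p = 0.4, n = 3 per line). Among peaks with a -log10 q of at least 5, a stricter list, the windows' mean share was 0.112% in ARPE-19 and 0.121% in H7, the other way round (exact permutation p = 0.8, n = 3 per line). With lists of equal length it was 0.159% and 0.0851% (exact permutation p = 0.1, n = 3 per line). The background of the peak caller, recovered from the lists as a measure of relative depth, was 0.425 to 0.483 expected reads per position in ARPE-19 and 0.592 to 0.653 in H7. At that background the fewest reads of a called peak were 4 in each ARPE-19 library and 5, 5 and 6 in the H7 libraries, so a missing peak means that none was called at this depth. In such bulk samples, fewer cells with an open region and less opening per cell cannot be told apart. Marker genes of the lines were not analysed here, because gene positions on hg19 beyond the 8 spans were not used.

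**Figure D1:**
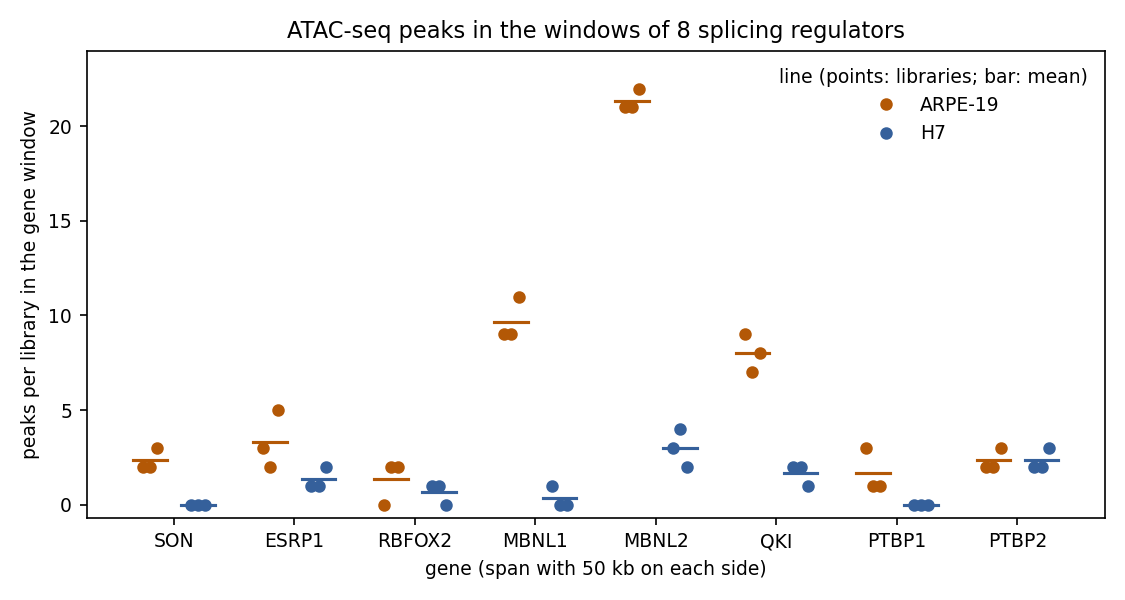
Number of ATAC-seq peaks (y axis) in the window of each gene (x axis), with 1 point per library and a bar at the mean of the 3 libraries of a line. The MBNL2 window stands highest with 21 to 22 peaks in ARPE-19, the lines overlap at ESRP1 and RBFOX2, and at PTBP2 they have the same values.

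In 5 of the 8 windows every ARPE-19 library had more peaks than every H7 library: SON, PTBP1, MBNL1, MBNL2 and QKI (exact permutation p = 0.1 each, 0.16 after Benjamini-Hochberg adjustment over the 8 windows, n = 3 per line). In 0 windows did H7 stand above, but with 10 kb on each side in place of 50 kb the PTBP2 window had it so. Of all 13399 windows of 200 kb on the autosomes and X with at least 1 peak, 53.4% had every ARPE-19 library above every H7 library and 2.14% the reverse, so that 5 of 8 is near the background. The share was 41.8% with windows of 100 kb and 67.2% with 400 kb. Per 100 kb, the median difference of ARPE-19 from H7 over the 8 windows was 1.59 peaks, against 1 peak over all 200 kb windows. All lists were then shortened to the length of the shortest, by keeping the 8622 peaks with the highest -log10 p. Only QKI then kept the lines apart, 1 of 8 windows, and no library kept a peak in the PTBP1 window. Of the 10831 windows of 200 kb that still held a peak, 14.2% had ARPE-19 above and 12% had H7 above.

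**Figure D2:**
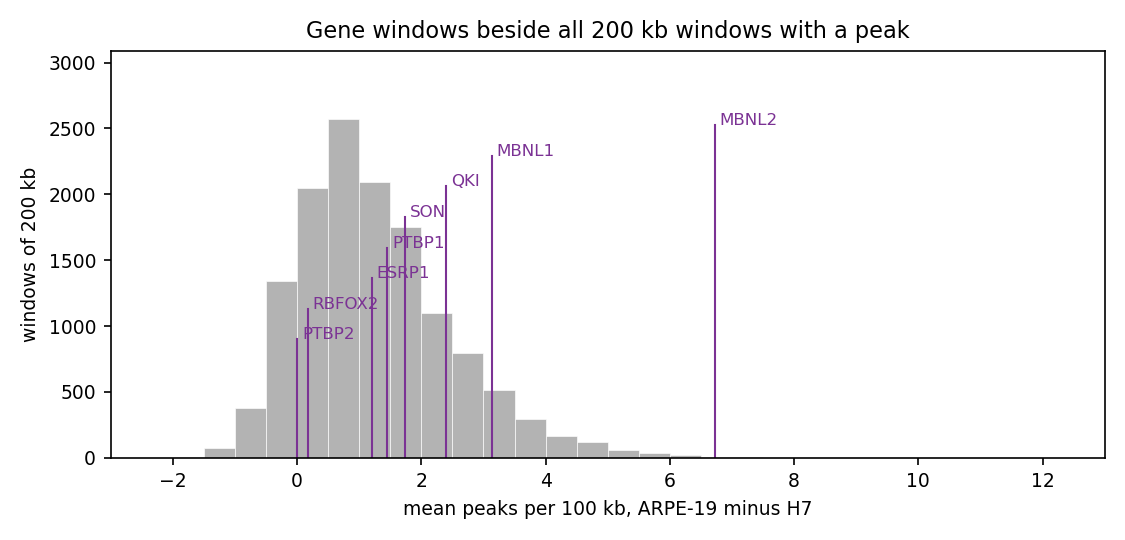
Difference in mean peaks per 100 kb of ARPE-19 from H7 (x axis) over all 200 kb windows with a peak (grey bars, number of windows on the y axis), with the 8 gene windows as purple lines whose heights carry no value. MBNL2 lies at 6.72 peaks per 100 kb, far in the upper tail, MBNL1 at 3.13 and QKI at 2.40, while PTBP2 lies at 0.

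By class, 28 of the 79 regions (35.4%) were ARPE-19-only, that is, called in each ARPE-19 library and never in H7, where 26% of all merged regions did. Regions that were H7-only by the mirrored rule numbered 2 (2.53%), against 1.82% over the genome, and those called in all 6 libraries numbered 3 (3.80%), against 1.82%. These shares lie near the background, and regions are not replicates, so they carry no test. With lists of equal length there were 5, 1 and 2 such regions among 30, or 16.7%, 3.33% and 6.67%, against 14.7%, 6.74% and 2.02% of all regions. Of the 28 ARPE-19-only regions, 13 lay in the MBNL2 window, 5 each in those of MBNL1 and QKI, 2 in that of SON, and 1 each in those of ESRP1, PTBP1 and PTBP2. Both H7-only regions lay upstream of a gene's left end, 1 in the PTBP2 window and 1 in that of QKI. Within lists, peaks of the windows had median fold enrichments of 6.79, 6.83 and 7.48 in ARPE-19 and 6.24, 5.98 and 6.16 in H7, each somewhat above the median of its whole list (6.44, 6.35 and 6.65, and 5.16, 5.21 and 5.49). Fold enrichment is the authors' ratio of summit reads to the background that their caller expected nearby, used here to describe and rank peaks.

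**Figure D3:**
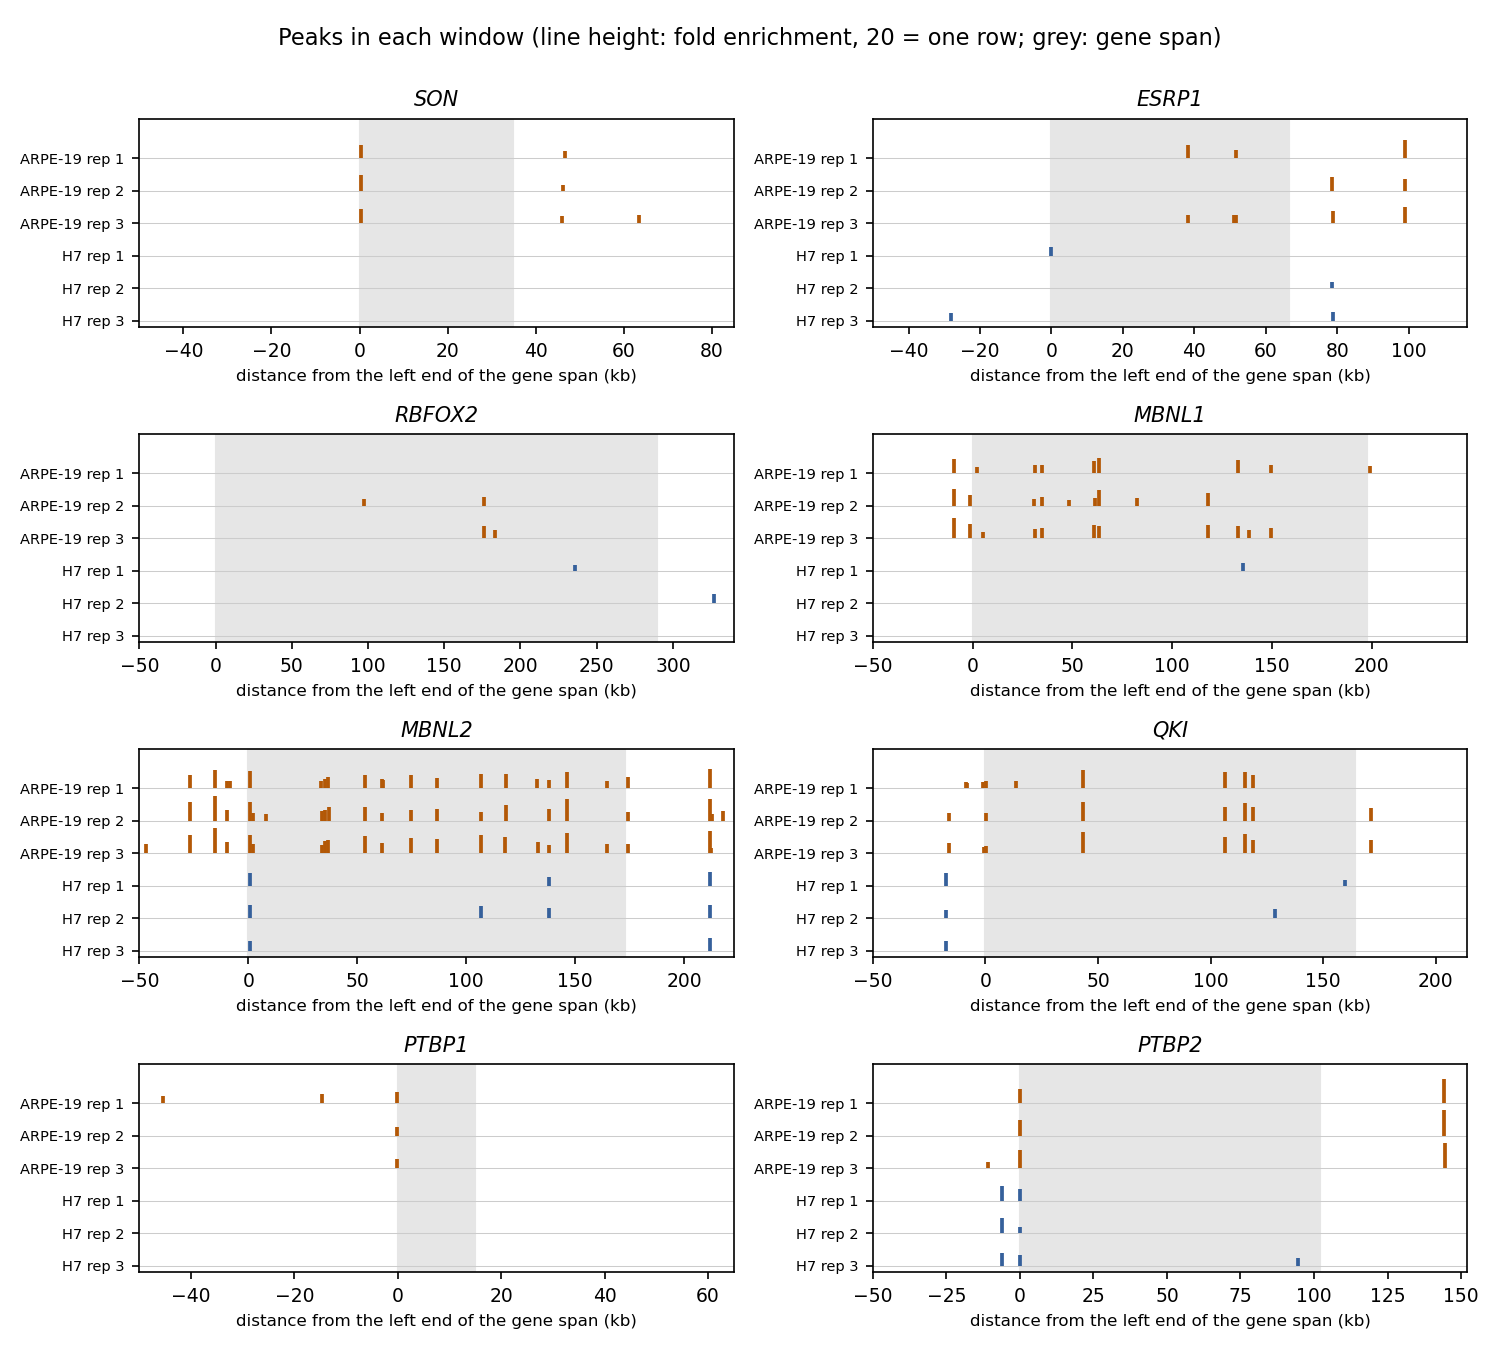
Position of each peak summit by library (rows) in the 8 windows, as distance in kb from the left end of the gene span (x axis), with the span in grey and the height of each line proportional to the fold enrichment. A dense series of ARPE-19 peaks runs through MBNL2, the SON and PTBP1 windows hold no H7 peak, and PTBP2 and QKI each have an H7 peak in all 3 libraries left of the span.

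SON, the speckle protein, had a peak at its start in the ARPE-19 libraries and none in H7. The region lay on chromosome 21 from 34914933 to 34915586, 9 bases inside the span that runs from 34914924 to 34949812. Its fold enrichment was 7.84, 9.85 and 8.70 in ARPE-19 replicates 1, 2 and 3, with 16, 17 and 18 reads at the summit. The 3 libraries were close to each other, and the peaks stood at the 71st to 83rd percentile of their lists by -log10 q. H7 had no peak anywhere in the SON window of 135 kb, against 2, 2 and 3 peaks in ARPE-19 (exact permutation p = 0.1, n = 3 per line). The second ARPE-19-only region, 11.1 kb past the end of the span from 34960937 to 34961529, was weak, with 6, 4 and 6 summit reads. Among the 8622 strongest peaks of each library, the start of SON was left in 1 of 3 ARPE-19 libraries. The coding genes GART, DONSON and CRYZL1 lie within 50 kb of SON in RefSeq's GRCh38 table, so peaks here cannot be ascribed to SON alone.

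PTBP1, the widely expressed repressor, resembled SON with weaker peaks. A region from 797044 to 797397 on chromosome 19, over the start of the span at 797392, was called in all 3 ARPE-19 libraries and never in H7. Fold enrichment was 6.79, 5.27 and 5.53, with 12, 10 and 11 summit reads. These are middling peaks, at the 55th, 35th and 36th percentile of their lists, and none of the 3 was among the 8622 strongest. The window held 3, 1 and 1 peaks in ARPE-19 and 0 in each H7 library (difference 1.67 peaks, exact permutation p = 0.1, n = 3 per line), and without ARPE-19 replicate 1 the difference was 1 peak. Both remaining regions were called in ARPE-19 replicate 1 alone, and 7 other coding genes lie within 50 kb of PTBP1 in the GRCh38 table.

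PTBP2, the neuronal paralog, was the member with the same number of peaks in both lines, 2, 2 and 3 in ARPE-19 and 2, 2 and 3 in H7 (exact permutation p = 1, n = 3 per line). The difference was 0 with an SE of 0.47 peaks, so the equality is one of counts and does not show that the lines are alike. With 10 kb on each side the means were 1 peak in ARPE-19 and 2.33 in H7, and every H7 library stood above every ARPE-19 library (exact permutation p = 0.1, n = 3 per line). The peaks lay in different places. The start of the span, at 97187221 on chromosome 1, was covered in all 6 libraries by a region from 97186966 to 97187800. Fold enrichment there was 8.74, 9.63 and 11.4 in ARPE-19 and 6.94, 3.62 and 6.37 in H7, with 17, 18 and 22 against 11, 6 and 11 summit reads. Every ARPE-19 library stood above every H7 library, and H7 replicate 2 was the lowest, with its peak at the 2nd percentile of its list. The mean log2 difference was 0.86 (SE 0.32, exact permutation p = 0.1, n = 3 per line). Peaks at this start were also wider in ARPE-19, at 632, 589 and 523 bases against 271, 154 and 248. Of the 1543 regions of the genome called in all 6 libraries, 43% had every ARPE-19 library wider than every H7 library. The reverse held for 2.98%.

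The strongest stem-cell region of the 8 windows that lacked an ARPE-19 peak lay near PTBP2. It ran from 97180922 to 97181400, 5.82 kb upstream of the start, with a fold enrichment of 8.99, 9.29 and 8.06 and 16, 18 and 15 summit reads in H7 replicates 1, 2 and 3. These peaks stood at the 94th, 97th and 90th percentile of their lists and were kept in all 3 H7 libraries with lists of equal length. The nearest ARPE-19 regions were 4.32 kb to the left, in 1 library, and 5.57 kb to the right, the start itself. In H7, the upstream region was stronger than the start in each library. The strongest ARPE-19-only region of the window lay 41.9 kb past the end of the span, from 97331167 to 97332019, with 39, 42 and 43 summit reads and a fold enrichment of 14.6, 16.0 and 15.4. No other coding gene lies within 50 kb of PTBP2 in the GRCh38 table.

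MBNL2 had the most peaks of the 8 windows in each ARPE-19 library and in H7 replicates 1 and 2, while PTBP2 had more in H7 replicate 3. Its counts were 21, 21 and 22 peaks in ARPE-19 and 3, 4 and 2 in H7, which is 7.82 and 1.10 peaks per 100 kb (difference 18.3 peaks, SE 0.67, exact permutation p = 0.1, n = 3 per line). In H7 only PTBP2 had more per length, with 1.15 peaks per 100 kb. With lists of equal length the MBNL2 counts were 4, 7 and 11 against 3, 4 and 2, and the lines overlapped. Of 25 regions in the window, 17 were called in all 3 ARPE-19 libraries, 12 of them inside the span and 5 in the flanks. Over the genome 31.5% of merged regions were called so, and 41.8% of those in the 8 windows. The span runs from 97873688 to 98046374 on chromosome 13. In the GRCh38 table the gene is 79600 bases longer than this span, which is more than the 50 kb flank. The left flank may hold part of it, and a start may lie outside the window. A region 79.4 kb to the left of the span, from 97793908 to 97794248, was not counted. It was called in 3 ARPE-19 and 2 H7 libraries.

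At the start of MBNL2 both lines had a peak. The region from 97874207 to 97874810, which begins 519 bases inside the span, had a fold enrichment of 10.4, 11.2 and 11.0 in ARPE-19 and 7.95, 8.41 and 6.05 in H7. Summit reads were 32, 28 and 32 against 17, 16 and 11. The lines did not overlap, with a mean log2 difference in fold of 0.56 (SE 0.15, exact permutation p = 0.1, n = 3 per line). The peak was among the 8622 strongest in all 6 libraries. The other region called in all 6 lay 38.7 kb past the end of the span, from 98085048 to 98085922, and had the most reads of any region in the 8 windows. It had 54, 54 and 67 summit reads in ARPE-19 and 31, 25 and 22 in H7, with a fold of 11.8, 13.5 and 13.9 against 8.21, 8.35 and 7.61 (log2 difference 0.70, SE 0.084, exact permutation p = 0.1, n = 3 per line). RAP2A, which codes for a small GTPase, is the coding gene within 50 kb of MBNL2 in the GRCh38 table. Peaks in this window, the region past the end of the span among them, therefore cannot be ascribed to MBNL2 alone.

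With the start of PTBP2, these make 3 regions called in all 6 libraries, and in all 3 the fold was higher in every ARPE-19 library than in every H7 library (p = 0.1 each after adjustment over the 3 exact permutation tests). Of the 1543 such regions of the genome, 52.8% had every ARPE-19 library above every H7 library and 1.94% the reverse. The median log2 difference in fold was 0.47 over those 1543 regions (quartiles 0.18 and 0.72). The regions of the MBNL2 window lay within the quartiles, and the start of PTBP2 lay above them. That place of PTBP2 rests on H7 replicate 2, without which the log2 difference was 0.57 and within the quartiles. Summit reads were also counted over the genome-wide background of each library. The log2 differences were then 1.53 at the start of PTBP2, 1.55 at that of MBNL2 and 1.63 downstream of MBNL2. All lay above the upper quartile of 1.30 of the 1543, whose median was 0.89. At PTBP2 this place also depends on H7 replicate 2, whose log2 value was 3.34, against 4.07 and 4.12 in H7 replicates 1 and 3.

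Elsewhere in MBNL2 the peaks were mostly those of ARPE-19. The strongest ARPE-19-only region lay 15.0 kb to the left of the span, from 97858332 to 97858691, where the longer gene of the GRCh38 table may reach. It had 22, 29 and 30 summit reads and a fold of 11.2, 15.1 and 15.4. Inside the span, a region from 98019228 to 98020147 had 26, 29 and 31 summit reads, and one from 97926899 to 97927773 had 20, 18 and 26. Those 2 were picked after their values were seen, as examples of the intragenic series. The H7 libraries had 2 further regions in the gene, both shared with all 3 ARPE-19 libraries. One from 98011645 to 98011956 was called in H7 replicates 1 and 2 with 9 summit reads each, beside 8, 10 and 6 in ARPE-19, and one from 97980378 to 97980869 in H7 replicate 2 with 13.

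**Figure D4:**
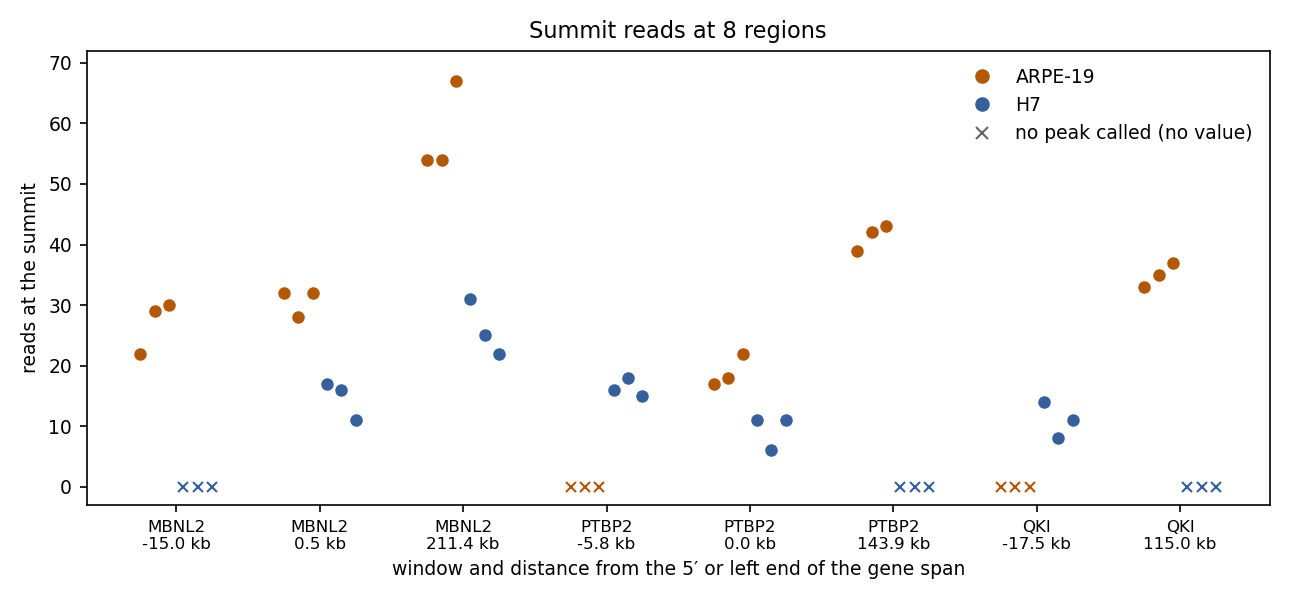
Reads at the peak summit (y axis) in each library for the regions of MBNL2, PTBP2 and QKI that were called in all 3 H7 libraries or were the strongest ARPE-19-only region of the window (x axis, distance from the 5′ or left end of the gene span). Crosses on the zero line mark libraries with no called peak and are not measured values, and the region downstream of MBNL2 stands highest with 54 to 67 reads in ARPE-19 and 22 to 31 in H7.

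MBNL1, the paralog, had many ARPE-19 peaks and almost none in H7. The counts were 9, 9 and 11 against 1, 0 and 0 (difference 9.33 peaks, SE 0.75, exact permutation p = 0.1, n = 3 per line). Per 100 kb this was 3.25 and 0.11 peaks. The span runs from 151985829 to 152183569 on chromosome 3, and no library had a peak within 1 kb of that start. Within 2 kb, each ARPE-19 library had a peak, and the region from 151984381 to 151984699 was called in replicates 2 and 3, with 13 and 20 summit reads. The strongest ARPE-19-only region lay 9.02 kb to the left of the span, from 151976216 to 151976806. It had a fold of 8.53, 10.2 and 12.2 and 15, 20 and 21 summit reads. The single H7 peak, from 152121044 to 152121444 in replicate 1, had 8 summit reads. With lists of equal length the window held 0, 2 and 1 ARPE-19 peaks. The GRCh38 table lists 3 starts for MBNL1 and a gene longer by 24408 bases than the span, so a start outside the span may have been missed.

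QKI, a regulator found in mesenchymal, glial and muscle cells, had 9, 7 and 8 peaks in ARPE-19 and 2, 2 and 1 in H7 (difference 6.33 peaks, SE 0.67, exact permutation p = 0.1, n = 3 per line). Among the 8622 strongest peaks of each library the counts were 4, 3 and 2 against 1, 1 and 1, still without overlap. The gene spans 163835675 to 163999628 on chromosome 6, and ARPE-19 had 3.25 peaks per 100 kb in the span and 2.67 in the flanks. The strongest region there, from 163950640 to 163951035 and 115 kb from the left end, had 33, 35 and 37 summit reads and a fold of 10.1, 11.1 and 12.0. A region 43.2 kb from the left end, from 163878864 to 163879301, had 24, 20 and 28 summit reads, an example picked after its values were seen. At the left end itself the ARPE-19 peaks were weak, with 12, 11 and 9 summit reads and a fold of 4.49, 4.91 and 4.14 from 163835703 to 163836044. Smaller peaks of 9 reads in ARPE-19 replicate 1 and 8 in replicate 3 lay within 1 kb to the left, and no H7 peak was called there.

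The H7-only region of the QKI window lay 17.5 kb to the left of the span, from 163817914 to 163818162. It had 14, 8 and 11 summit reads in H7 replicates 1, 2 and 3 and a fold of 7.93, 4.80 and 6.27. The replicates differed in rank, at the 89th, 36th and 67th percentile of their lists, and the region was left in 2 of 3 H7 libraries with lists of equal length or with a -log10 q of at least 5. An ARPE-19 region called in 2 libraries began 1125 bases to its right. The other H7 peaks, from 163964413 to 163964586 and from 163995225 to 163995411, were each called in 1 library, with 8 and 5 summit reads.

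RBFOX2 had the fewest ARPE-19 peaks per length of the 8 windows. Over 390 kb, the longest of the 8, there were 0, 2 and 2 peaks in ARPE-19 and 1, 1 and 0 in H7 (difference 0.67 peaks, SE 0.75, exact permutation p = 0.6, n = 3 per line). The difference was 1.33 without ARPE-19 replicate 1 and 0.33 without ARPE-19 replicate 2, ARPE-19 replicate 3 or H7 replicate 3. That is 0.34 and 0.17 peaks per 100 kb, where the median over all 200 kb windows with a peak was 1.5 and 0.33. The region in most libraries, from 36310586 to 36310869 on chromosome 22, was called in ARPE-19 replicates 2 and 3 with 7 and 10 summit reads. H7 peaks lay from 36370710 to 36370861 in replicate 1, with 5 summit reads, and from 36461960 to 36462270 in replicate 2, with 9. No peak lay within 1 kb of either end of the span, which runs from 36134783 to 36424585, and no region was called in all 3 libraries of a line.

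ESRP1, the epithelial regulator, was the member whose left end had a peak in H7 but not in ARPE-19. That peak, from 95653210 to 95653414 on chromosome 8, was called in H7 replicate 1 alone, with 13 summit reads, a fold of 5.53 and a rank at the 68th percentile. A peak in 1 of 3 libraries does not set the lines apart. The window as a whole held 3, 2 and 5 peaks in ARPE-19 and 1, 1 and 2 in H7, which overlap (difference 2 peaks, SE 0.94, exact permutation p = 0.2, n = 3 per line). Without ARPE-19 replicate 3 the difference was 1.17 peaks. The region in most libraries lay 12.0 kb past the right end, from 95731740 to 95732398, with 13 summit reads in ARPE-19 replicates 2 and 3, 6 in H7 replicate 2 and 10 in H7 replicate 3. The ARPE-19-only region, 32.4 kb past the right end from 95752092 to 95752343, had 18, 10 and 15 summit reads and a fold of 10.9, 7.23 and 9.95. DPY19L4 is the other coding gene within 50 kb in the GRCh38 table, so peaks in this window cannot be ascribed to ESRP1 alone.

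**Figure D5:**
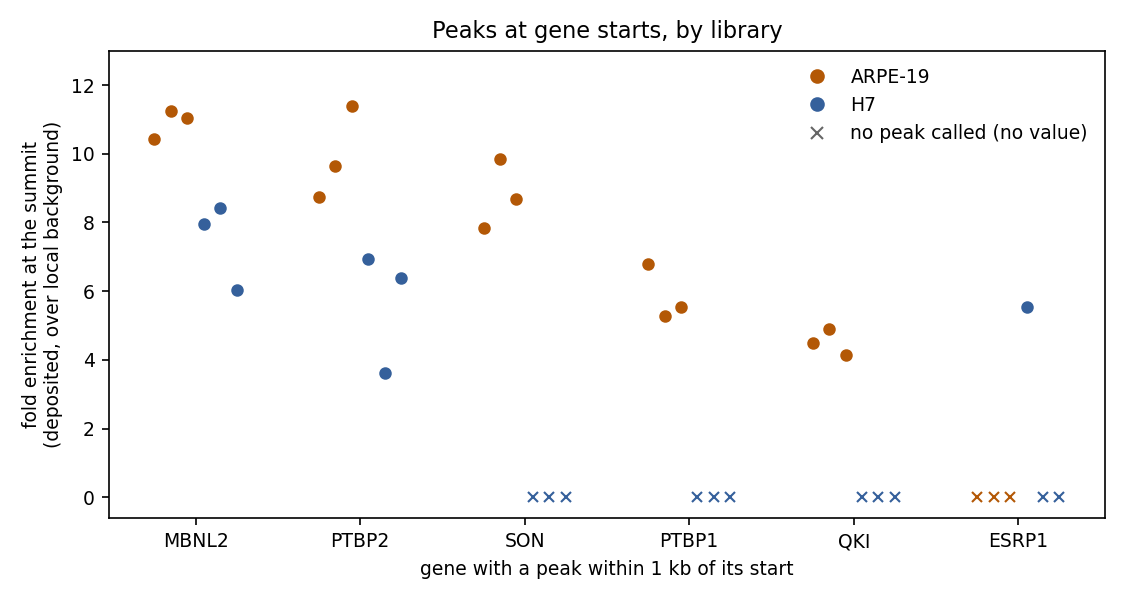
Deposited fold enrichment at the summit (y axis) in each library for the 6 genes with a peak within 1 kb of their start or span end (x axis), with crosses on the zero line for libraries without a called peak, which are not measured values. MBNL2 and PTBP2 have a peak in all 6 libraries with ARPE-19 above H7, SON, PTBP1 and QKI in the 3 ARPE-19 libraries, and ESRP1 in 1 H7 library.

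Over the starts of all members, 5 genes had a peak within 1 kb in at least 2 of 3 ARPE-19 libraries (SON, PTBP1, PTBP2, MBNL2 and QKI) and 2 genes in at least 2 of 3 H7 libraries (PTBP2 and MBNL2). With lists of equal length it was 2 genes in each line, PTBP2 and MBNL2 both times, so the count in ARPE-19 depends on list length. The share over all gene starts was not analysed here. The strand of ESRP1, RBFOX2 and QKI was not in the promoter table, so both ends of their spans were searched. The windows whose counts were most alike per 100 kb over the 6 libraries were MBNL1 and QKI, with a summed absolute difference of 2.98 peaks per 100 kb, followed by SON and PTBP1 with 3.09.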

How the data were processed

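ATAC-seq of 3 ARPE-19 and 3 H7 libraries gave a peak list each, and 6 samples of 4C were left out. The submitters' processing notes name hg19, MACS2 and bedtools. Aligner and duplicate handling are not given in the sources used here. Each peak in the deposited lists has a score, a ratio (fold enrichment over local background), a -log10 p and a -log10 q, on positions given here 1-based. Peaks were called per library.

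The 8 spans are those given with the choice of genes; 8 of 8 lie on the same chromosome in the GRCh38 table. The genes and lists were chosen with earlier results of these data known. Peaks overlapping a window by at least 1 base were counted. The planned lists of other splicing genes and of cell type markers need gene positions on hg19 and were not run. Named regions are those within 1 kb of a start, the region in most libraries, the ARPE-19-only region of highest mean rank, and regions in 3 of 3 H7 libraries or else in the most; others are said to be picked after seeing values. Summit reads and background were solved from fold, read as summit reads plus 1 over background plus 1, and -log10 p, within 0.001 for at least 99.988% of nuclear peaks of each library; they may include duplicates, and counting error limits small peaks. Recovery was tested on simulated data: 100% of 4496 peaks. Those values were made with the same formulas that were solved, so this checks the solving and not whether the caller used them. Libraries were compared by exact permutation over 20 assignments. The alternatives were a stricter q, equal list length, other windows, 50% overlap, looser classes and leaving out each library. Tools were matplotlib 3.10.9, scipy 1.17.1, pandas 2.3.3, numpy 2.4.6 and Python 3.11.15.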

Additional observations from a re-analysis of the deposited data

How the results depend on the processing

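The difference in peaks over the 8 windows kept its direction under all 13 alternatives run. It ranged from 6.33 peaks with lists of equal length to 48.3 with 100 kb on each side. Replicate numbers as a block, counted among the 13, cannot change it. In the PTBP2 window it moved under 10 of 11 alternatives, from -1.33 peaks (10 kb on each side) to 0.33. The difference in their share turned to -0.0094 percentage points with a -log10 q of at least 5, and the cause was not tested. With lists of equal length, which shortens all but that of H7 replicate 3, the difference turned to -0.67 peaks in the ESRP1 window and -0.33 in the RBFOX2 window, and was 0 in that of PTBP1, where no library kept a peak. ARPE-19-only regions then numbered 5, H7-only regions 1, and gene starts with an ARPE-19 peak 2. A -log10 q of at least 5 gave 18 ARPE-19-only regions (38.3% of 47, against 36.0% of all) and 1 H7-only region (2.13% against 1.32%), 10 kb on each side gave 1 H7-only region (1.64% of 61, against 1.82%), and asking each peak to cover 50% of its region gave 0 regions in all 6 libraries (0.458% of all). Asking for 2 of 3 libraries in each line gave 5 such regions (6.33%, against 3.86% of all), and within 500 bases 1 gene start had a peak in H7. Without any 1 library, and with 2 of 2 asked of its line, there were 28 to 35 ARPE-19-only regions (36.4% to 50%, against 27.2% to 35.0% of all). H7-only regions numbered 2 (2.60% to 2.86%, against 1.99% to 3.74%). Regions in every library kept numbered 3 to 4 (3.90% to 5.19%, against 2.06% to 2.55%). The differences were 38.2 to 42.7 peaks and 0.030 to 0.044 percentage points. Leaving out MBNL2 and leaving out libraries for gene starts were chosen after seeing the data. With replicate numbers as a block (paired exact permutation), the differences stay 40.7 peaks, 0.036 percentage points and log2 0.56, 0.70 and 0.86 with p = 0.25, the smallest that 3 pairs allow. Deviations of same-numbered libraries had small correlations (0.0018, 0.0058 and 0.027), which cannot show whether such libraries shared a batch. The block changed no call.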

Other observations

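Regions called in H7 overlapped those of ARPE-19 unevenly among the windows. In the MBNL2 window, 4 of 4 regions with an H7 peak also had an ARPE-19 peak, against 2 of 12 in the other 7 windows, at ESRP1 and PTBP2; over the genome it was 27.7% of 26040 regions. Of the regions with any H7 peak in the 8 windows, 5 of 16 (31.3%) were called in all 3 H7 libraries, where 13.1% were over the genome. For ARPE-19 it was 33 of 69 (47.8%) against 40.5%. Regions in all 3 ARPE-19 libraries lay inside the gene spans in 24 of 33 cases, where 49 of all 79 regions of the windows did. Window borders decide some members: a region called in 3 ARPE-19 libraries and 1 H7 library lay 50.7 kb from SON and was not counted, while the outermost region counted near MBNL2 lay 46.6 kb from it, in 1 ARPE-19 library. These are counts of regions, without a test.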
